A study of Homo sapiens with 5 samples.

Results

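The p53 target genes described here are 33 human genes chosen by name, as genes that p53 is known to activate. All 33 names were present in the deposited count table, which lists 27992 gene names. Of these, 31 members reached 1 CPM in at least 1 library and were analysed, among 15109 genes in all that did so. CPM is the number of reads of a gene per 1000000 gene reads, here scaled with the TMM method (trimmed mean of M values), and it is not corrected for gene length. SPATA18, a regulator of mitochondrial quality control, had 0 to 2 reads per library, and TNFRSF10D, a decoy receptor for the death ligand TRAIL, had 0 to 4 reads, so neither is given a fold. The members lie on 15 chromosomes.

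The libraries are from U2OS, an established human osteosarcoma cell line, and 4 of 5 carry a pTRIPZ-YFP-ER-E2F1 construct. In it the transcription factor E2F1 is fused to a yellow fluorescent protein and to the ligand-binding part of the oestrogen receptor, so that doxycycline induces the fusion and 4-hydroxytamoxifen (OHT) activates it. There was 1 library for each of 5 groups: parental cells, and fractions separated by flow cytometry into YFP-negative, -low, -medium and -high cells. The protocol given for all 5, parental cells included, was doxycycline at 500 ng/ml for 48 h, then OHT at 90 nM for another 20 h, in medium with 8% serum. The YFP-negative cells therefore shared the drugs and were sorted from the construct-bearing cells, whereas the parental label names no construct. No label says whether the construct line is 1 clone. With 1 library per group no test between groups was possible, so the main folds carry an exact 95% counting interval, which covers counting error only. A call needed both a log2 ratio (with 0.5 CPM added to both values) past 2-fold and an interval that left out a fold of 1. A lower level in a library cannot be told apart from fewer cells of the fraction making the transcript.

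As background, p53 is a transcription factor that stressed or damaged cells stabilise, mainly by escape from the ubiquitin ligase MDM2, and it binds paired copies of a short consensus sequence near its targets. The targets range over DNA repair, cell cycle arrest, control of reactive oxygen and mTOR signalling, and cell death. E2F1 drives genes of the G1 to S transition and can also induce ARF, an MDM2 inhibitor encoded at CDKN2A, and the p53 relative TP73.

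Library depth was between 70715003 gene reads in YFP-high and 76525158 in YFP-negative cells. Reads counted for E2F1 came to 86.1 CPM in parental cells and 106 (negative), 163 (low), 361 (medium) and 996 CPM (high) across the YFP fractions, in the order of the gates. In the construct-bearing cells this count may hold both the fusion and the cell's own E2F1, which were not told apart. Of 8 osteoblast lineage markers, 4 reached 1 CPM (RUNX2, ALPL, SPP1 and COL1A1), while BGLAP had 0 to 4 reads, IBSP 0 or 1 and SP7 0 to 7. The summed level of those 8 markers ran from 805 CPM in YFP-high to 3340 CPM in parental cells, nearly all of it COL1A1. Leukocyte markers summed to 3.60 to 5.69 CPM and endothelial markers to 0.803 to 3.08 CPM over the 5 libraries. Epithelial markers summed to 454 to 572 CPM, mostly KRT8 and KRT18, and all 4 listed reached 1 CPM. The part of these marker levels in the results below was not tested.

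Most p53 target genes had a lower level in YFP-high than in YFP-negative cells, and 17 of 31 were not called. In YFP-high against YFP-negative cells 5 of 31 members were called higher and 9 lower, where 20.5% of all analysed genes were called higher and 11.3% lower. As shares of the members these are 16.1% and 29.03%. The median log2 ratio of the members was -0.51, against -0.04 over all analysed genes, and 24 of 31 members had a negative log2 ratio (77.4%, against 51.7% of all genes). The gene at that median was TNFRSF10C, which reached 1 CPM in parental cells alone and had 28 reads in YFP-high and 70 in YFP-negative cells. A filter of 5 CPM, which left it out, gave a median of -0.52 over 30 members (all genes -0.04). The counting intervals of all 31 members left out a fold of 1, 24 lying below it and 7 above it. At this depth most genes did so: of all 15109 analysed genes, 6987 intervals lay below 1, 6638 above it and 1484 held it. Scaling by total counts alone moved the median of all genes in this comparison to -0.30 and the share of higher calls among all called genes to 45.7%, from 64.4% with TMM, and the members' median to -0.78.

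The lower gates held few calls. In YFP-medium against YFP-negative cells 1 member was called higher (background 9.76%) and 0 lower (background 2.21%), with a median log2 ratio of -0.34 (all genes -0.01) and 26 of 31 members negative, against 51.0% of all genes. TNFRSF10C was at this median too, and the filter of 5 CPM gave -0.31. In YFP-low against YFP-negative cells 0 members were called higher (background 2.11%) and 0 lower (background 0.0463%). The median there was -0.07, with 22 of 31 members negative, against 50.1% of all genes. Set against parental cells instead, the members' median in YFP-medium was -0.03 (all genes -0.005), with 17 of 31 negative (54.8%, against 50.4% of all genes). In YFP-low it was 0.16 (all genes 0.003), with 12 of 31 negative (38.7%, against 49.7% of all genes).

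**Figure D1:**
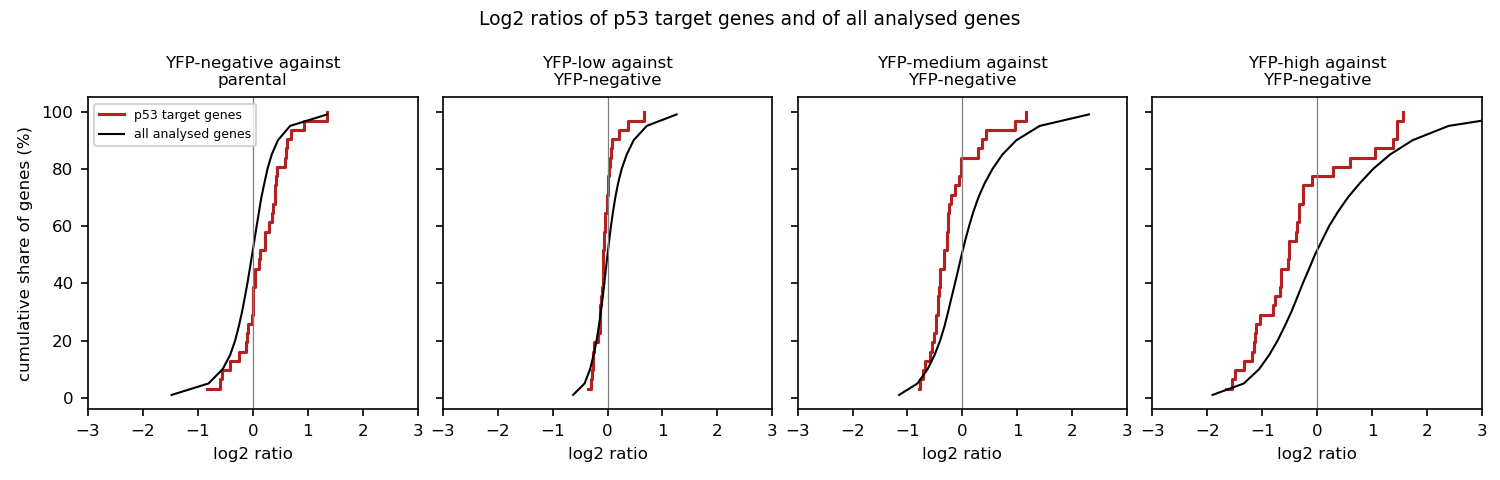
Cumulative share of genes (vertical axis, percent) against log2 ratio (horizontal axis, with 0.5 CPM added to both values) in 4 comparisons, for the 31 analysed p53 target genes (red steps) and all 15109 analysed genes (black line). The horizontal axis is limited to -3 to 3, so the top of the black line leaves the YFP-high panel. The red steps lie to the left of the black line over most of the YFP-medium and YFP-high panels, where the members' medians were -0.34 and -0.51, and to its right in YFP-negative against parental cells, where the median was 0.13.

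On the length-corrected TPM scale that the authors deposited (transcripts per 1000000), the 33 members together held 1761 TPM in parental cells and 2081 (negative), 1941 (low), 1601 (medium) and 1482 TPM (high) across the YFP fractions. The sum was highest in YFP-negative cells and lower in each later gate. The largest single level in YFP-negative cells was that of GADD45A at 233 TPM, followed by CCNG1 at 193 and RPS27L at 183. In YFP-high cells NINJ1 led with 156 TPM, ahead of RPS27L at 128 and CCNG1 at 124. The lowest analysed member there was TNFRSF10C at 0.860 TPM.

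**Figure D2:**
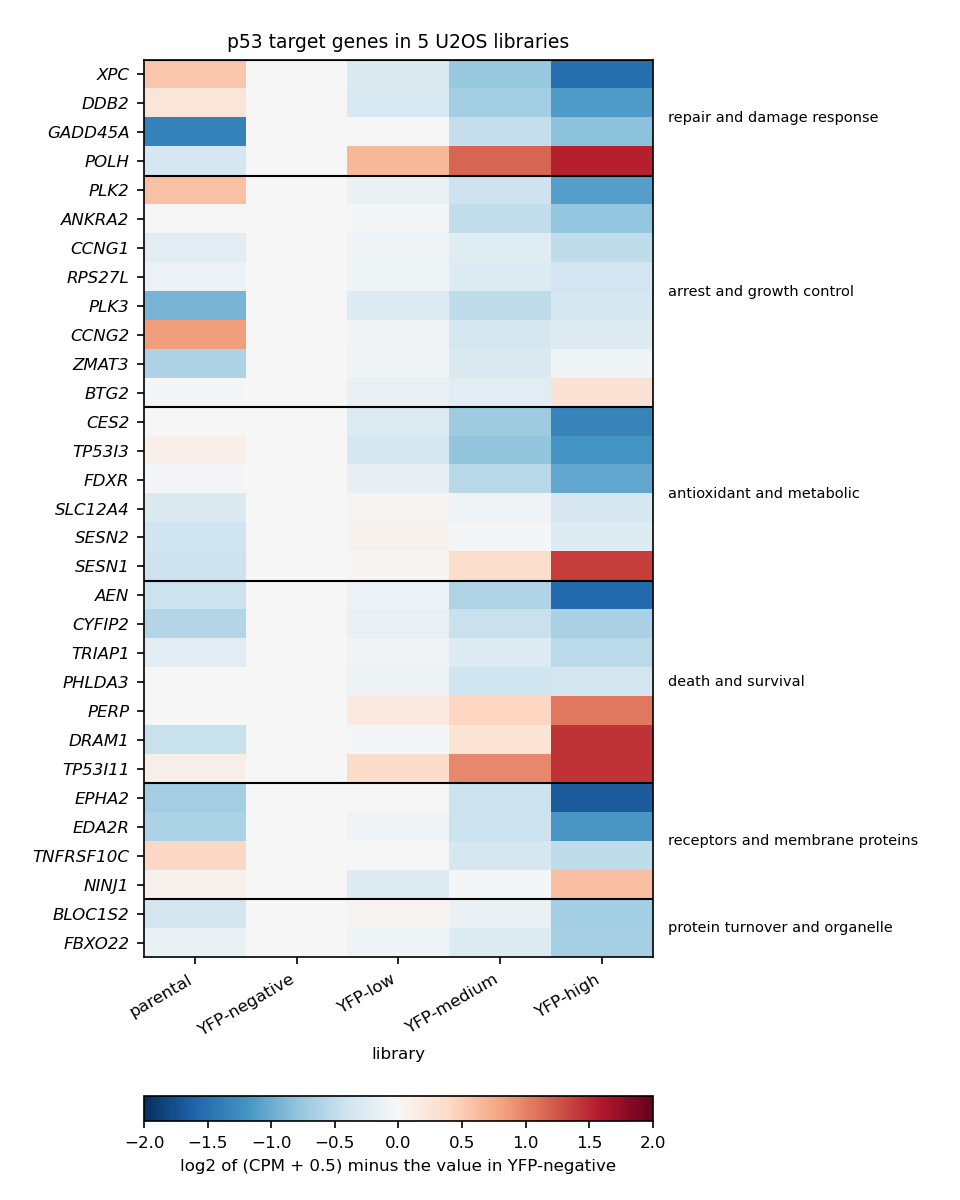
Log2 of CPM plus 0.5 in each of the 5 libraries (columns) minus the value in YFP-negative cells, for the 31 analysed p53 target genes (rows), grouped by role and sorted within a role by YFP-high. Blue is lower and red higher than in YFP-negative cells, which are white by construction. Most rows turn blue towards YFP-high, while POLH, SESN1, PERP, DRAM1 and TP53I11 turn red, and GADD45A is blue in parental cells.

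The promoters show which members hold a sequence that p53 or E2F factors are known to bind. Known p53 targets were chosen, so their share of p53 sequences is tied to that choice and is given as a description. RefSeq promoter windows (250 bases before to 50 after a start, build GRCh38.p14) were found for 28 of 33 members, 27 of them analysed, with 43 windows. A p53 consensus decamer, whose pattern reads alike on both strands, was in 7 of these 43 windows (16.3%), against 6.63% of all 35116 windows in the table. The 7 genes were AEN, DDB2, FDXR, PLK2, RPS27L, SESN1 and SLC12A4. Of the 7 members with a decamer 4 were called lower in YFP-high against YFP-negative cells and 1, SESN1, higher. Of the 20 with a window and no decamer 5 were called lower and 4 higher. The difference was not tested. Over all analysed genes 11.3% were called lower and 20.5% higher there, and these shares were not computed for all genes with a decamer. One of 4 E2F octamers (TTTCGCGC, TTTGGCGC, TTTCCCGC or TTTGCCGC, on either strand) was in 3 windows (6.98%, against 3.31% of all windows), those of AEN, CYFIP2 and XPC. Of these 3 genes AEN and XPC were called lower, and the share called lower among all genes with an octamer was not computed. DDB2 was the one member with 2 decamers close enough for a full p53 site (up to 13 bases apart), which 10 of all 35116 windows held. A match describes letters in the window and does not show that a factor bound there in these cells.
Shown next are the stretches around the matches of 6 called members, written 5′ to 3′ on the gene's strand, with the motif in capitals; the first 5 carry the p53 decamer and the last 2 the E2F octamer.
DDB2, chr11:47214979-47214999, plus strand: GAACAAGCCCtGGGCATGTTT
PLK2, chr5:58460189-58460238, minus strand: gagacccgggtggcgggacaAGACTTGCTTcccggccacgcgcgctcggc
FDXR, chr17:74872995-74873025, minus strand: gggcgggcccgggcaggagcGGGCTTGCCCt
SESN1, chr6:109009008-109009057, minus strand: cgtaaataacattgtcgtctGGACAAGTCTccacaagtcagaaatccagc
AEN, chr15:88621286-88621335, plus strand: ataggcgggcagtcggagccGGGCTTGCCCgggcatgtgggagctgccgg
AEN, chr15:88621121-88621168, plus strand: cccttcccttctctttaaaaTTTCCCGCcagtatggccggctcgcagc
XPC, chr3:14178815-14178851, minus strand: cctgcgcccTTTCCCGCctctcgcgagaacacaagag
AEN thus held both kinds of motif, the decamer starting at -34 and the octamer at -199 relative to the start. FDXR, AEN and SLC12A4 held the same decamer letters; FDXR and AEN were called lower and SLC12A4 was not called.

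Among the 4 repair and damage response genes, POLH was higher in YFP-high cells and the nucleotide excision repair genes XPC and DDB2 were lower. Against YFP-negative cells these were 1 of 4 called higher (25%) and 2 of 4 lower (50%), where 20.5% and 11.3% of all analysed genes were. POLH, the translesion polymerase eta that copies past ultraviolet lesions, had 61.2 CPM in parental cells and 78.1 (negative), 124 (low), 176 (medium) and 232 CPM (high) across the YFP fractions. It was higher at each gate and 2.96-fold higher in YFP-high than in YFP-negative cells (interval 2.88 to 3.05), and it was the member called in YFP-medium, at 2.25-fold. In the GENCODE 29 annotation POLH overlaps GTPBP2, which had 59.2 CPM in YFP-high and 98.0 CPM in YFP-negative cells, a difference in the other direction. Whether reads were counted by strand is not stated, so reads from the shared stretch could have been counted for either gene or for none. This holds for the 8 members with a counted neighbour named here. One of the 8, SLC12A4, overlaps LCAT on the same strand, where counting by strand would not part the reads. In all, 14 members overlap an annotated gene, 11 of them one on the opposite strand. SESN1, DRAM1, TP53I3 and CES2 are among the 11, with neighbours that the count table does not name. Reads of those neighbours could have been counted for the member, which was not tested. XPC, which recognises the lesion in nucleotide excision repair, had 65.2 CPM in parental cells and 44.2 (negative), 36.2 (low), 25.8 (medium) and 15.3 CPM (high) across the YFP fractions. Its level was lower at each gate, and YFP-high was 2.90 times lower than YFP-negative (interval 2.70 to 3.11). XPC overlaps LSM3, which had 66.5 CPM in YFP-high and 56.2 in YFP-negative cells. DDB2, the ultraviolet-damage-binding subunit that hands lesions to XPC, followed the same order with 60.1, 50.5, 41.0, 31.3 and 22.7 CPM from parental to YFP-high cells, and YFP-high was 2.22 times lower than YFP-negative (interval 2.09 to 2.36).
GADD45A, a growth arrest and damage response protein, had 37.9 CPM in parental cells and 97.7 (negative), 98.1 (low), 70.2 (medium) and 55.3 CPM (high) across the YFP fractions. It was lowest in parental cells and highest, at nearly the same level, in YFP-negative and YFP-low cells. Its log2 ratio in YFP-high against YFP-negative cells was -0.81, which was not called, and was called at -1.08 with total-count scaling.

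Of the 8 arrest and growth control genes, 0 were called higher and 1 (12.5%) lower in YFP-high against YFP-negative cells. Of all analysed genes, 20.5% were called higher and 11.3% lower there. In this role 7 of 8 log2 ratios were negative (87.5%, against 51.7% of all genes). The called gene was PLK2, a polo-like kinase of stress and centriole control, with 148 CPM in parental cells and 98.2 (negative), 89.6 (low), 73.7 (medium) and 45.3 CPM (high) across the YFP fractions. It was lower at each gate, 2.17 times lower in YFP-high than in YFP-negative cells (interval 2.08 to 2.26). With a correction for transcript GC content its log2 ratio was -0.97 instead of -1.11, which is not past 2-fold. BTG2, an antiproliferative cofactor of mRNA deadenylation, was at the other end of the group with 38.1, 39.1, 35.3, 33.6 and 47.6 CPM from parental to YFP-high cells, and was 1.22-fold higher in YFP-high than in YFP-negative cells (interval 1.16 to 1.28).
CCNG1 and CCNG2 encode the atypical cyclins G1 and G2, and CCNG2 differed mainly between parental and construct-bearing cells. Its level was 70.9 CPM in parental cells and 39.4 (negative), 38.0 (low), 31.1 (medium) and 32.97 CPM (high) across the YFP fractions. YFP-high was 1.19 times lower than YFP-negative and 2.15 times lower than parental cells (intervals 1.13 to 1.26 and 2.05 to 2.26), so CCNG2 was called against parental cells and not against YFP-negative cells. CCNG1 had a log2 ratio of -0.51 in YFP-high against YFP-negative cells, RPS27L, a p53-inducible relative of a ribosomal protein, -0.38, and the polo-like kinase PLK3 -0.33. ZMAT3, an RNA-binding zinc finger protein, was near no change at -0.09. ANKRA2, an ankyrin repeat protein, had -0.77 on 208 reads in YFP-high and 491 in YFP-negative cells, and was called lower, at -1.01, with total-count scaling. PLK3 overlaps TCTEX1D4, which had 1.28 CPM in YFP-high and 2.72 CPM in YFP-negative cells. ANKRA2 overlaps UTP15, which had 24.7 CPM in YFP-high and 44.4 CPM in YFP-negative cells, lower like ANKRA2.

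**Figure D3:**
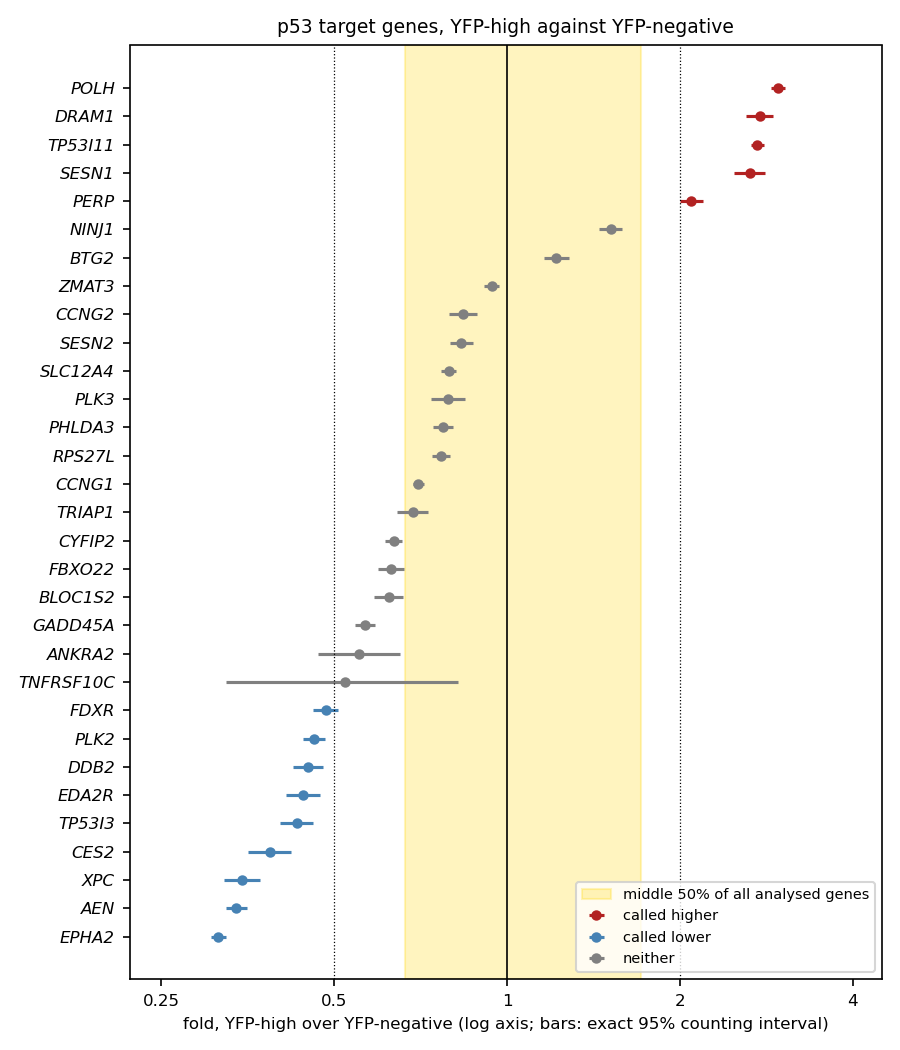
Fold of YFP-high over YFP-negative cells (log axis) for the 31 analysed p53 target genes, with exact 95% counting intervals as bars; red points were called higher, blue lower and grey neither, and the dotted lines mark 2-fold. The yellow band is the middle 50% of all analysed genes. EPHA2, AEN and XPC lie lowest, at 3.18, 2.96 and 2.90 times lower, and POLH highest at 2.96-fold.

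Of the 6 antioxidant and metabolic genes, 1 was called higher and 3 lower in YFP-high against YFP-negative cells. Of all analysed genes, 20.5% were called higher and 11.3% lower there. The sestrins, which limit reactive oxygen and restrain mTORC1, parted from each other. SESN1 had 13.8 CPM in parental cells and 18.4 (negative), 18.8 (low), 23.8 (medium) and 48.8 CPM (high) across the YFP fractions. Its CPM was higher at each gate, mostly in the last one, and 2.65-fold higher in YFP-high than in YFP-negative cells (interval 2.49 to 2.82). The first step was within counting error, 1.02-fold in YFP-low over YFP-negative cells (interval 0.951 to 1.10). On the deposited scale these libraries had 13.7 and 13.8 TPM. SESN2 had 42.3, 55.9, 59.0, 54.9 and 46.5 CPM from parental to YFP-high cells, highest in YFP-low, and its log2 ratio in YFP-high against YFP-negative cells was -0.26. The difference between the sestrins was not tested.
The called lower genes of this role were the oxidoreductases TP53I3 and FDXR and the carboxylesterase CES2. CES2, a hydrolase of esters and drugs, had 28.9 CPM in parental cells and 28.7 (negative), 23.7 (low), 17.3 (medium) and 11.1 CPM (high) across the YFP fractions. YFP-negative and parental cells differed by less than counting error, and the level was lower in each gate after them, 2.59 times lower in YFP-high than in YFP-negative cells (interval 2.38 to 2.82). TP53I3, a quinone oxidoreductase known as PIG3, had 46.2, 43.0, 33.7, 24.7 and 18.5 CPM from parental to YFP-high cells, 2.32 times lower in YFP-high than in YFP-negative (interval 2.17 to 2.48). FDXR, the mitochondrial ferredoxin reductase, had 64.8, 66.4, 58.9, 45.2 and 32.1 CPM in the same order, 2.07 times lower (interval 1.97 to 2.18). Both were thus highest in parental and YFP-negative cells and lowest in YFP-high. SLC12A4, a potassium chloride cotransporter, had a log2 ratio of -0.34; it overlaps LCAT, which had 14.5 CPM in YFP-high and 14.9 in YFP-negative cells.

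Of the 7 analysed death and survival genes, 3 were called higher and 1 lower in YFP-high against YFP-negative cells, where 20.5% of all genes were called higher and 11.3% lower, and roles were not tested against each other. TP53I11, a membrane protein also known as PIG11, had 101 CPM in parental cells and 93.2 (negative), 121 (low), 181 (medium) and 254 CPM (high) across the YFP fractions. It was higher at each gate and 2.73-fold higher in YFP-high than in YFP-negative cells (interval 2.66 to 2.80). Its annotated overlap is with TSPAN18, which stayed at or below 0.336 CPM in every library. DRAM1, a lysosomal membrane protein that promotes autophagy, had 17.4, 24.0, 23.7, 29.2 and 66.1 CPM from parental to YFP-high cells. It was nearly level in YFP-negative and YFP-low cells and stood out in YFP-high, 2.76-fold above YFP-negative cells (interval 2.61 to 2.91) and 2.26-fold above YFP-medium cells.
PERP, a tetraspan protein of desmosomes and an apoptosis effector, had 34.8 CPM in parental cells and 34.9 (negative), 40.1 (low), 47.3 (medium) and 73.1 CPM (high) across the YFP fractions. YFP-high was the highest library, 2.10-fold above YFP-negative (interval 2.00 to 2.20), and this call sat at the 2-fold line. Its log2 ratio was 1.06, but 0.79 with total-count scaling and 0.92 on the deposited TPM, where it was not called. AEN, a nuclease that promotes apoptosis after damage, was the called lower gene, with 96.2 CPM in parental cells and 129 (negative), 119 (low), 85.5 (medium) and 43.7 CPM (high) across the YFP fractions. It was lower at each gate, 2.96 times lower in YFP-high than in YFP-negative cells (interval 2.84 to 3.09). The log2 ratios of the other analysed members of this role were all negative and not called: CYFIP2, a subunit of the WAVE actin regulatory complex, at -0.65, TRIAP1, an inhibitor of apoptosis in mitochondria, at -0.54, and PHLDA3, a repressor of AKT, at -0.37. CYFIP2 overlaps ADAM19, which was lower like it, with 63.1 CPM in YFP-high and 179 CPM in YFP-negative cells.

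**Figure D4:**
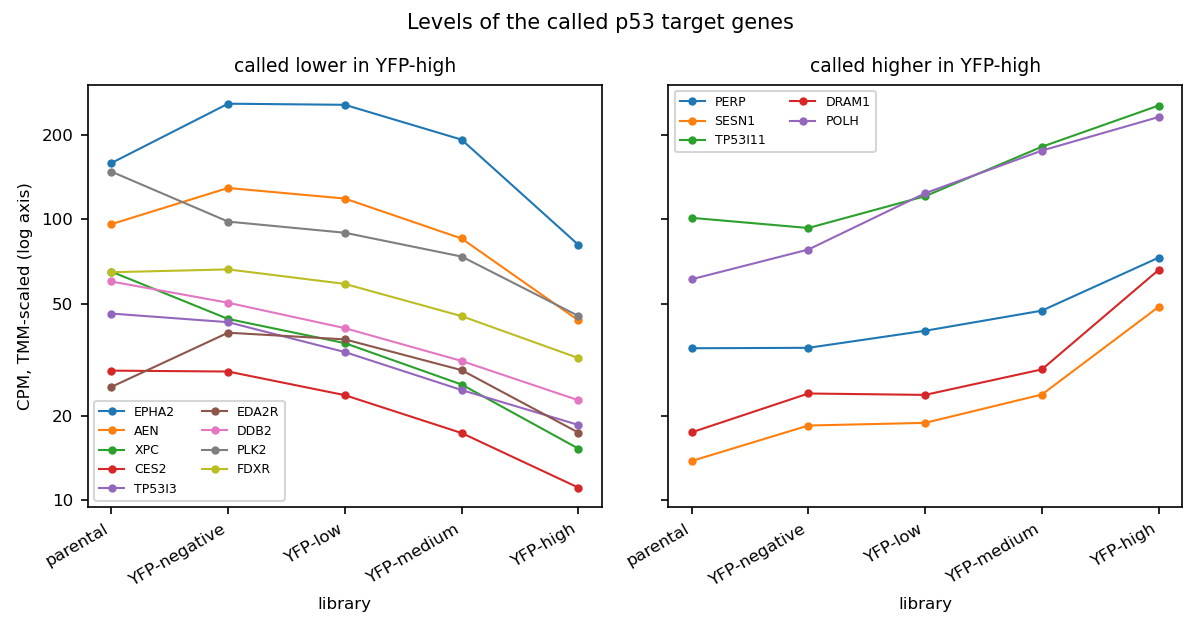
TMM-scaled CPM (log axis) of the called p53 target genes in the 5 libraries, those called lower in YFP-high against YFP-negative cells on the left and those called higher on the right. All 9 lower genes decline from YFP-negative through YFP-high, and 4 of the 5 higher genes climb at each gate. From YFP-negative to YFP-low, DRAM1 (24.0 and 23.7 CPM), SESN1 (18.4 and 18.8 CPM) and EPHA2 (258 and 256 CPM) are nearly flat.

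Among receptors and membrane proteins, EPHA2 and EDA2R were lower in YFP-high cells. Against YFP-negative cells 2 of 4 analysed genes of this role (50%) were called lower and 0 higher, where 11.3% and 20.5% of all analysed genes were. EPHA2, a receptor tyrosine kinase for ephrins, had 159 CPM in parental cells and 258 (negative), 256 (low), 192 (medium) and 81.2 CPM (high) across the YFP fractions. YFP-high was 3.18 times lower than YFP-negative (interval 3.09 to 3.28), the largest such fold among the members, and 2.37 times lower than YFP-medium. EDA2R, the receptor of the TNF family ligand ectodysplasin A2, had 25.3, 39.5, 37.4, 29.04 and 17.4 CPM from parental to YFP-high cells, 2.27 times lower in YFP-high than in YFP-negative (interval 2.12 to 2.43). Both were higher in YFP-negative than in parental cells and below parental cells in YFP-high.
NINJ1, which ruptures the plasma membrane in lytic cell death, had 45.4, 42.6, 35.4, 41.6 and 64.6 CPM from parental to YFP-high cells. It was lowest in YFP-low and highest in YFP-high, 1.52-fold above YFP-negative (interval 1.45 to 1.59), which was not called. The TRAIL decoy receptor TNFRSF10C was barely expressed, with 28 reads in YFP-high and 70 in YFP-negative cells, 1.92 times lower (interval 1.22 to 3.08).

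The last role holds FBXO22, a substrate receptor of an SCF ubiquitin ligase, and BLOC1S2, a subunit of a complex of lysosome-related organelles. FBXO22 had 46.7 CPM in parental cells and 51.2 (negative), 48.0 (low), 42.1 (medium) and 32.2 CPM (high) across the YFP fractions, with a log2 ratio of -0.66 in YFP-high against YFP-negative. BLOC1S2 had 33.6, 43.3, 45.0, 39.6 and 27.0 CPM in the same order, with a log2 ratio of -0.68. Both were lowest in YFP-high and neither was called, where 20.5% of all analysed genes were called higher and 11.3% lower. FBXO22 overlaps NRG4, which had 2.11 CPM in YFP-high and 0.432 CPM in YFP-negative cells.

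Across the gates, 15 of 31 members (48.4%) were lower at every step from YFP-negative through low and medium to YFP-high, where 27.9% of all analysed genes were, and 4 members (12.9%) were higher at every step, where 24.1% of all genes were. The 4 were PERP, POLH, SESN1 and TP53I11. These orders take no account of counting error, and the first step of SESN1 was within it. All 9 members called lower in YFP-high followed the declining order, though the first step of EPHA2 was within counting error (interval 0.972 to 1.010). The call uses the end libraries of that order, so it favours a decline. The same share was not computed for all genes called lower. Of these 9, 5 had at least 50% of their log2 change by YFP-medium and 0 had it by YFP-low. Among the 9 lower members, TP53I3 was the furthest along, with 66.2% of its log2 change by YFP-medium, and EPHA2 the least, with 25.5%. Among the members called higher, POLH had 74.6% of its log2 change by YFP-medium, against 19.4% for DRAM1 and 25.9% for SESN1.
Between neighbouring gates, 0 members were called higher (background 2.71%) or lower (background 0.185%) in YFP-medium against YFP-low cells. In YFP-high against YFP-medium cells DRAM1 and SESN1 were called higher, 2 of 31 (background 9.25%), and EPHA2 lower, 1 of 31 (background 1.33%). The highest of the 4 construct libraries was YFP-negative for 19 members, YFP-high for 7, YFP-low for 5 and YFP-medium for 0, which are 61.3%, 22.6%, 16.1% and 0% of members, against 36.6%, 38.1%, 10.6% and 14.7% of all analysed genes.

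Parental cells, which the labels give as a separate group, put the YFP-negative baseline in view. In YFP-negative against parental cells 1 member was called higher (background 2.15%) and 0 lower (background 2.93%). The called member was GADD45A, with 97.7 CPM in YFP-negative and 37.9 CPM in parental cells, 2.58-fold higher (interval 2.47 to 2.69). The members' median log2 ratio was 0.13, against -0.01 over all analysed genes, and 22 of 31 were positive, as were 7345 of all 15109 genes. PLK3 was next at 0.92 and EPHA2 at 0.70, while CCNG2 was lowest at -0.84.
The comparisons of YFP-high with YFP-negative and with parental cells share the YFP-high library. Against parental cells 5 members were called higher (background 21.3%) and 8 lower (background 14.9%) in YFP-high. The members' median log2 ratio was -0.31 (all genes -0.04), with 20 of 31 negative (64.5%, against 51.5% of all genes). The 5 higher genes were called over both baselines, as were 2736 of all 3090 genes called higher over YFP-negative cells, and DRAM1, POLH and SESN1 were 3.79-, 3.78- and 3.54-fold above parental cells. Of the 9 lower genes, 7 were called against both baselines, as were 1298 of all 1707 genes called lower against YFP-negative cells, with XPC at 4.27 and PLK2 at 3.27 times lower than in parental cells. EPHA2 was 1.96 times and EDA2R 1.45 times lower than in parental cells, which were not called. GADD45A, PLK3, ZMAT3 and SESN2 changed sign with the baseline: their log2 ratios in YFP-high were negative against YFP-negative cells, and 0.54, 0.59, 0.52 and 0.14 against parental cells.
In YFP-low against parental cells 2 members, POLH and GADD45A, were called higher (background 5.92%) and 0 lower (background 4.43%). In YFP-medium against parental cells POLH was called higher, 1 of 31 (background 12.3%), and XPC, PLK2 and CCNG2 lower, 3 of 31 (background 8.29%).

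**Figure D5:**
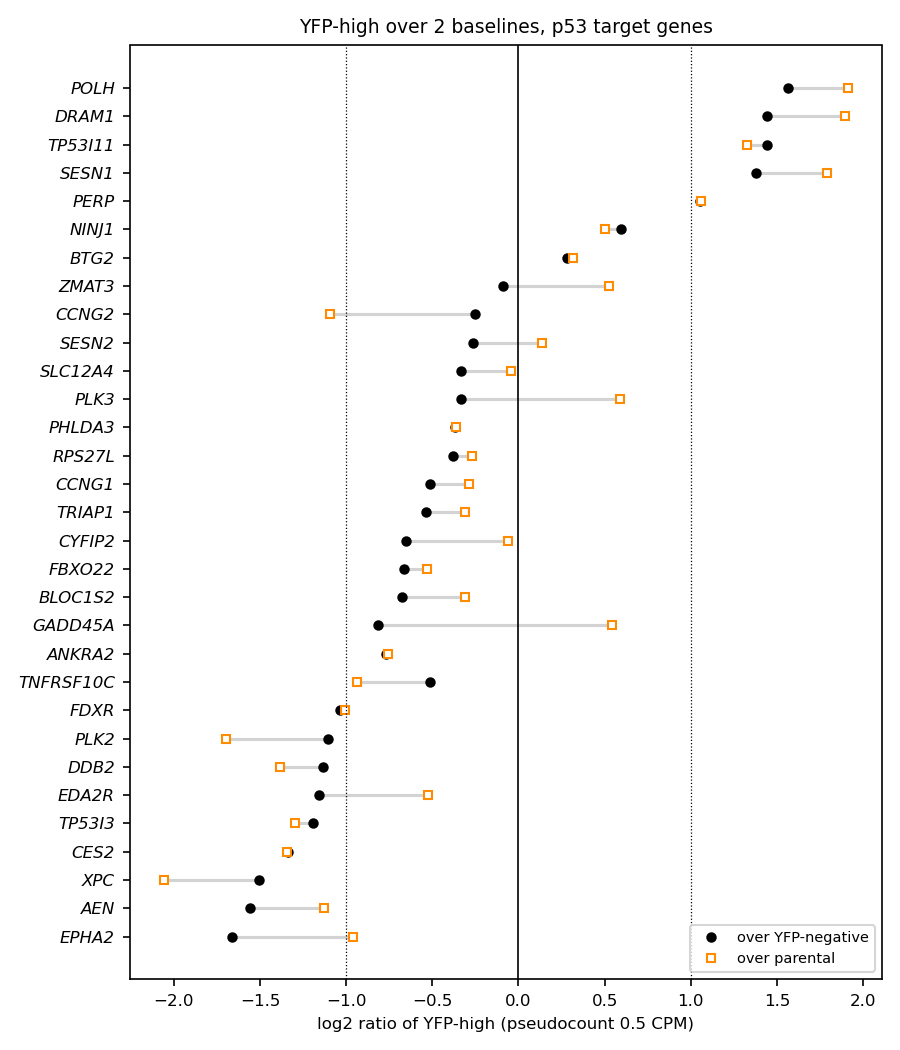
Log2 ratio of YFP-high cells (horizontal axis, with 0.5 CPM added) over YFP-negative cells (black circles) and over parental cells (orange squares) for the 31 analysed p53 target genes, with dotted lines at 2-fold. The symbols of POLH, SESN1, DRAM1, PERP and TP53I11 lie past the right line on both baselines. GADD45A lies at -0.81 on one and 0.54 on the other.

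The members can be read beside the rest of the p53 pathway, listed as 13 family members and regulators and 23 other targets. MDM2, the ubiquitin ligase for p53 and a p53 target itself, had 165, 203, 247, 265 and 219 CPM from parental to YFP-high cells. CDKN1A, the p21 inhibitor of cyclin-dependent kinases and a central p53 target, had 185, 299, 379, 418 and 381 CPM in the same order. Both peaked in YFP-medium and neither was called in YFP-high against YFP-negative cells, with log2 ratios of 0.11 for MDM2 and 0.35 for CDKN1A. With total-count scaling these were -0.16 and 0.08, so the sign for MDM2 depends on the scaling.
Of 11 analysed regulators, 3 (27.3%) were called higher and 0 lower in YFP-high against YFP-negative cells, against 20.5% and 11.3% of all analysed genes. Their median log2 ratio was 0.11 (all genes -0.04). Total-count scaling gave 2 higher, 2 lower and a median of -0.16. That scaling called 2415 of all 15099 genes higher and 2865 lower. PPM1D, the WIP1 phosphatase that opposes p53, had 374 CPM in YFP-high and 73.0 CPM in YFP-negative cells, 5.12-fold higher (interval 4.98 to 5.27). TP73, the p53 relative, had 194 and 47.0 CPM in those libraries, 4.13-fold higher, and RFWD2, the COP1 ubiquitin ligase, 112 and 47.2 CPM, 2.37-fold higher. CDKN2A had 1 read in YFP-negative cells and 0 in the other libraries.
Of the 21 analysed other targets, 5 (23.8%) were called higher in YFP-high against YFP-negative cells and 3 (14.3%) lower. The shares of all analysed genes were 20.5% and 11.3%. The median log2 ratio of these targets was -0.40 (all genes -0.04), and 14 were negative (66.7%, against 51.7% of all genes). Total-count scaling gave 5 higher and 6 lower. The 4 furthest up were APAF1, the scaffold of the apoptosome, at 7.66-fold, KITLG, the KIT ligand, at 6.68-fold, TGFA, an EGF receptor ligand, at 5.32-fold and BBC3, which encodes PUMA, a pro-apoptotic member of the BCL2 family, at 2.89-fold. Among those called lower were the cytokine LIF at 11.8 times and THBS1, thrombospondin, at 2.99 times.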

How the data were processed

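Transcriptomes of 5 U2OS libraries, 1 per group, were compared by the fraction named in the labels. The authors deposited whole-number counts per gene name and a table of TPM; per the submitters' processing notes, the tools were HISAT2 2.0.3 and HTSeq 0.6.0, with Trimmomatic 0.36, CASAVA 1.8.2 and bcl2fastq, on build hg19. Which annotation was counted, and whether by strand, is not stated in those notes. Reads of overlapping genes may therefore not be told apart. The 5 HTSeq classes of reads given to no gene and a row named unknown were left out; gene reads were 75.7% to 77.7% of all counted. Factors were computed from the deposited counts with TMM in edgeR 4.0.16 (R 4.3.3), followed by log2 ratios with 0.5 CPM added, folds without it, and exact Clopper-Pearson 95% counting intervals (scipy 1.17.1). Genes at 1 CPM or more in at least 1 library were analysed. The calling script was checked on simulated counts that held counting error alone and planted changes larger than 2-fold. That check cannot speak to the spread between cultures or to calls near 2-fold.

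The members and gene lists were chosen with earlier results of these data known. All members are named; those called in a main comparison or against parental cells, or at the end of their role group, are given in full, as are MDM2, CDKN1A and up to 4 called genes per other list and direction, except for items that are not reported here. Gene overlaps came from GENCODE 29 by name and promoter sequences from RefSeq (GRCh38.p14). No genome of hg19 was used here. As alternatives, ratios were recomputed with total counts, size factors of DESeq2 1.42.0, other filters and pseudocounts, deposited TPM, a 1.5-fold rule, the parental baseline and, chosen after seeing the data, a transcript GC correction.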

Additional observations from a re-analysis of the deposited data

How the results depend on the processing

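With 1 library per group, folds carry counting error only, and the spread between cultures is not known. The counts of called members in YFP-high against YFP-negative cells (5 higher, 9 lower) stayed within 1.5 times with total counts or DESeq2 size factors, a filter of 5 CPM (30 members left) or none, 2 CPM added, deposited TPM, the parental baseline and the transcript GC correction. A 1.5-fold rule gave 14 lower there, 2 higher and 5 lower in YFP-medium and 1 higher in YFP-low against YFP-negative cells, and 6 higher and 2 lower in YFP-negative against parental cells. Total counts gave 0 higher and 1 lower in YFP-medium against YFP-negative cells, where the median of all genes moved to -0.22 and the share of higher calls among all called genes to 58.0%, against 81.5% with TMM. Against the parental library 2 were higher in YFP-low and 3 lower in YFP-medium, and the members' median in YFP-low was 0.16, a change of sign. The GC correction gave 2 higher in YFP-negative against parental cells. The causes of these moves were not tested. Among single members, of which the ratios in YFP-high against YFP-negative cells alone were recomputed, PERP lost its call with total counts and deposited TPM, PLK2 with the GC correction, and EDA2R and EPHA2 against parental cells; GADD45A and ANKRA2 gained one with total counts. In that comparison 4 members changed sign against the parental library and 0 under the other alternatives. Depth limits TNFRSF10C, SPATA18 and TNFRSF10D. No paired analysis was possible because each group has 1 library.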
